A study of Mus musculus with 6 samples.

Results

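The circadian clock genes described here are *Per1*, *Per2*, *Per3*, *Cry1*, *Cry2*, *Nr1d1*, *Nr1d2*, *Dbp*, *Tef* and *Clock*, taken by name from the deposited gene counts. They are 10 of 55809 genes in the counts, and all 10 were among the 15733 genes with enough counts to be tested. In HC11 cells given BMP7, *Nr1d1* was higher by 1.24-fold (95% interval 1.11 to 1.38) and *Cry1* was lower, at 0.770-fold of control (0.665 to 0.891), and the other 8 did not pass the test. Of 19 tested genes that work around these 10, *Nfil3*, *Nampt*, *Arntl* and *Hlf* were higher and *Bhlhe41* and *Arntl2* lower. Of all genes tested, 5.99% were higher and 5.38% lower. The calls of *Nr1d1*, *Cry1*, *Hlf* and *Arntl2* were lost in some fits that left out a library.

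HC11 is a mouse mammary epithelial cell line, here used as a luminal-side counterpart to mammary stem cells, and BMP7 is a secreted ligand of the TGF-beta superfamily that signals through SMAD proteins. Sequencing of poly(A) RNA gave 3 libraries of HC11 grown with BMP7 in the medium and 3 (Ctrl) of HC11 grown in medium that lacked it. The labels name no other difference between the groups, and all cells are of 1 line. By the study's methods, HC11 cells were starved before BMP7 was added for either minutes or hours. Which of these durations the libraries had, the hour at which cells were harvested and whether the replicates were separate cultures were not given in the sources used here, so p-values measure the spread between these libraries, which may be technical.

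The mammalian clock is a feedback loop in which CLOCK and BMAL1 (gene *Arntl*) bind E-boxes and switch on the *Per* and *Cry* genes, whose proteins return to block CLOCK and BMAL1. A second loop is closed by the nuclear receptors REV-ERB (*Nr1d1*, *Nr1d2*) and ROR, which compete for the same element in *Arntl*, *Clock*, *Cry1* and *Nfil3* to repress or activate them. Output is passed on by the PAR bZIP activators DBP, TEF and HLF and their competitor NFIL3 at D-boxes, and ID proteins, which are BMP targets, are known to bind clock factors of the basic helix-loop-helix class.

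Promoter sequences from RefSeq (GRCm38.p6) matched 9 of the 10 genes (no entry for *Per2*) and were searched on both strands from 250 bases before to 50 bases after each annotated start. The search covered the E-box CACGTG, the E'-box CACGTT, the D-box in its forms TTATGTAA and TTACGTAA, the CRE TGACGTCA, the GC-rich BMP SMAD motif GGCGCC and the ROR/REV-ERB element. An E-box was found in 3 of the 9 (*Per1*, *Cry1*, *Tef*) against 7.15% of 32851 mouse promoters, and an E'-box in 3 (*Cry1*, *Cry2*, *Nr1d1*) against 4.68%. A D-box was found in 1 (*Per3*) against 1.06%. The CRE, the GC-rich motif and the ROR/REV-ERB element, held by 1.79%, 11.9% and 0.384% of all promoters, were in none of the 9, and *Nr1d2*, *Dbp* and *Clock* held no match in these windows. A gene was counted if any of its starts held a match, while the shares are per promoter window. Genes with several starts (*Per1*, *Tef*, *Clock*) thus had more windows to match. A match is a description of the letters, not evidence of binding.

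The 250 bases before the start are printed below for 5 genes. The E'-box stood before *Nr1d1*, which rose, and before *Cry1*, which fell. The E-box stood before *Cry1* and before *Tef* and *Per1*, which did not pass the test, and the D-box before *Per3*, which did not pass either. Capitals mark the E-box, the E'-box (read as AACGTG on the gene's strand in both genes) and the D-box, and each run is written 5′ to 3′ on the gene's own strand. *Nr1d1* (chr11:98775378-98775627, minus strand) has its E'-box 28 bases before the start, and *Cry1* (chr10:85185055-85185304, minus strand) has an E-box at 60 and an E'-box at 79 bases before it. *Tef* (chr15:81802423-81802672, plus strand) has an E-box at 127 bases, *Per1* (chr11:69098699-69098948, plus strand) at 166 bases, and *Per3* (chr4:151044666-151044915, minus strand) has a pair of D-boxes at 205 and 158 bases. *Per1* and *Tef* each have a second start in the table, and the first is shown.
Nr1d1: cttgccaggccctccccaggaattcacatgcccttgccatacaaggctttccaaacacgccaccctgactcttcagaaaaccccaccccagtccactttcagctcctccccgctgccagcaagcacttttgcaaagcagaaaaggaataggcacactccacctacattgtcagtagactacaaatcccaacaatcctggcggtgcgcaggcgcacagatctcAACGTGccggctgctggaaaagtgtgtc
Cry1: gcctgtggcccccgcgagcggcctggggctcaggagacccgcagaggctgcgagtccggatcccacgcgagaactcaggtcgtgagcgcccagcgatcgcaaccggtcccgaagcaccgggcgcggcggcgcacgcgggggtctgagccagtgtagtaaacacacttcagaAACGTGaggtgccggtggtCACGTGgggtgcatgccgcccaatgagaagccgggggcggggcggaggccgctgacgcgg
Tef: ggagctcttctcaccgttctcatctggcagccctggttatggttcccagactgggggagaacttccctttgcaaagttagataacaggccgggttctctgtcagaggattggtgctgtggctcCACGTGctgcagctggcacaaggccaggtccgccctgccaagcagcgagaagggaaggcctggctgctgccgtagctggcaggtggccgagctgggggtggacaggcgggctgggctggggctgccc
Per1: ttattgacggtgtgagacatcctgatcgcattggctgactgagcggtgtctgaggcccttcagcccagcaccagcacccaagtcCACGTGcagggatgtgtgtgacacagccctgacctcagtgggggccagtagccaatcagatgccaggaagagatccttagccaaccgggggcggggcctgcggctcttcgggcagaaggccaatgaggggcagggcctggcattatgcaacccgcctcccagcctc
Per3: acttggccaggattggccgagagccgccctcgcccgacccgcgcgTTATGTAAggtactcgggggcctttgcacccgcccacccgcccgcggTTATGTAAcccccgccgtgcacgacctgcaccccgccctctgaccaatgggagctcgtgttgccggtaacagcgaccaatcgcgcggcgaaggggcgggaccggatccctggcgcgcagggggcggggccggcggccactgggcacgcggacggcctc

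Levels below are CPM, a gene's count scaled to the size of its library after TMM normalization, listed for Ctrl replicates 1, 2 and 3 and then for BMP7 replicates 1, 3 and 4, as the counts are named. Library totals ran from 14607938 to 23748970 counts, the lowest being BMP7 replicate 1, and a single gene of the 10 had between 137 (*Cry2*) and 4102 (*Clock*) counts in a library. A gene was called where the adjusted p of edgeR's quasi-likelihood test (Benjamini-Hochberg over 15733 genes) was under 0.05 and the fold change above 1.2. Called this way, 942 genes (5.99%) were higher and 846 (5.38%) lower with BMP7, and the *Id* genes, the classic BMP targets, were all 4 higher, with log2 fold changes of 6.31 for *Id3*, 4.28 for *Id1*, 2.82 for *Id2* and 0.49 for *Id4*. All 12 mammary epithelial markers had counts in every library, and their summed level was 8189 to 8344 CPM in Ctrl and 8712 to 10032 CPM with BMP7. Most of the sum was *Krt14* (3394 to 3631 CPM in Ctrl, 4284 to 5258 with BMP7) and *Krt5* (2600 to 2685 and 2423 to 2818). The study used these as basal markers, and its luminal markers *Krt8* and *Krt18* were at 57.9 to 66.2 and 48.5 to 51.1 CPM in Ctrl. Of the 12, 3 were called higher (*Krt14*, *Trp63*, *Gata3*) and 4 lower (*Epcam*, *Cdh1*, *Krt18*, *Cldn3*), with a median log2 fold change of -0.24. Summed adipocyte markers (12 genes, 9 of 9 tested called higher, *Pparg* at 0 in a library) were at 46.8 to 60.5 CPM in Ctrl and at 82.5, 152 and 136 CPM with BMP7, while macrophage markers (14 genes, 2 of 10 tested called lower) were at 61.4 to 66.0 CPM in Ctrl and at 65.4, 31.2 and 29.5 CPM with BMP7. Fibroblast markers (8 genes, *Lum* and *Thy1* at 0 in a library) summed to 115 to 126 CPM in Ctrl and 102 to 120 CPM with BMP7, with 3 of 6 tested called higher and 1 lower. BMP7 replicates 3 and 4 thus stood apart from replicate 1 in the adipocyte and macrophage sums, and whether other cells had a part in the values below was not tested. In bulk RNA, a change in the number of cells of a kind and a change in RNA per cell cannot be told apart.

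Of the 10 clock genes, 1 was called higher (5.99% of all genes tested were) and 1 lower (5.38%). The groups did not overlap for 4 of the 10, with BMP7 above Ctrl for *Nr1d1* and *Per1* (as for 14.8% of all genes tested) and below it for *Cry1* and *Per2* (15.1%). The median log2 fold change of the 10 was -0.07, against -0.0062 over all genes tested. A call of 1 gene in 10 in each direction stands near the share of all genes, and the 10 had no shared direction.

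**Figure D1:**
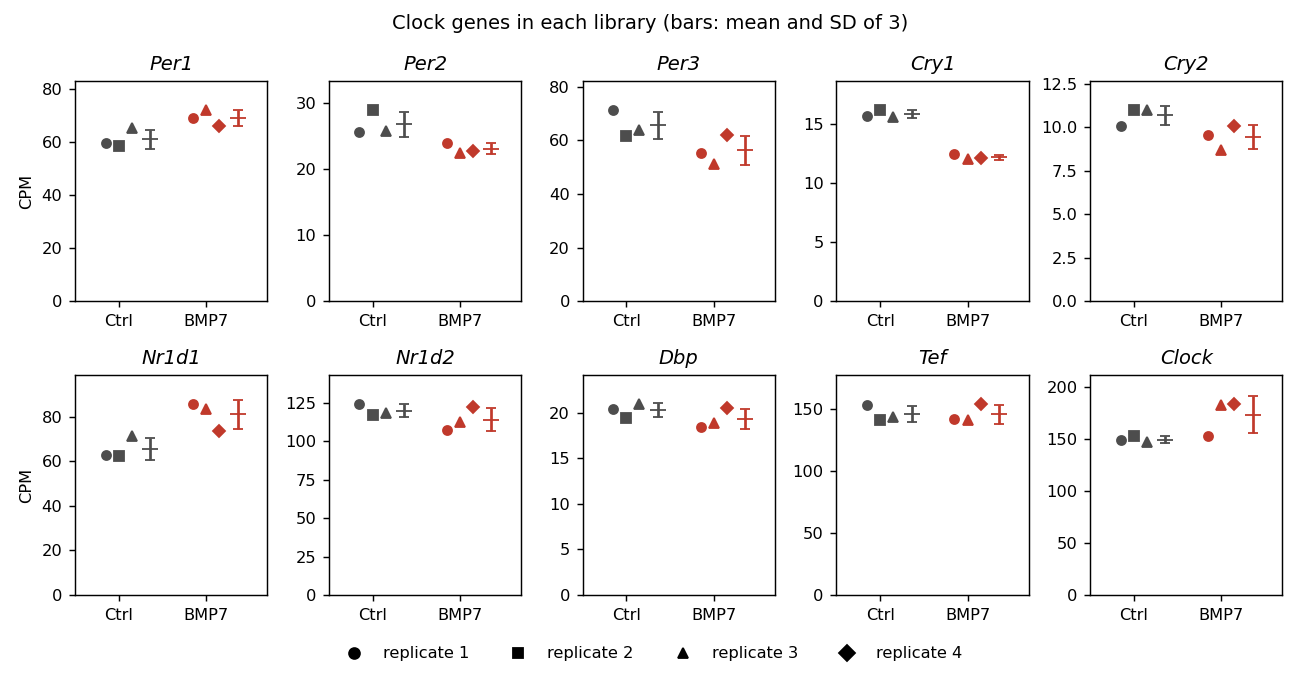
CPM of each of the 10 clock genes (vertical axes from 0, one scale per gene) in Ctrl (grey) and BMP7 (red) libraries, with the symbol giving the replicate and the bar the mean and SD of 3 libraries. *Cry1* sat at 15.6 to 16.2 CPM in Ctrl and 12 to 12.4 CPM with BMP7, while *Tef* covered the same range in both groups, and BMP7 replicate 1 of *Clock* fell among the Ctrl libraries.

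Among the repressors of the first loop, the cryptochrome gene *Cry1* fell. *Cry1* (chr10:84967564-85020928, mm39, minus strand) encodes the stronger of the cryptochrome repressors of CLOCK and BMAL1. It had 15.7, 16.2 and 15.6 CPM in Ctrl and 12.4, 12 and 12.1 CPM with BMP7. All BMP7 libraries were below all Ctrl libraries, and the libraries of each group lay close together (SD 0.317 and 0.209 CPM, n = 3). The log2 fold change was -0.38 (SE 0.10, edgeR adjusted p = 0.0176), and the exact permutation test gave a two-sided p of 0.1, the smallest that 3 libraries against 3 can give. The call was lost without Ctrl replicate 2 (adjusted p = 0.0677) and without BMP7 replicate 3 (adjusted p = 0.0619), at log2 fold changes of -0.36 in both, and with BMP7 replicate 1 as the only BMP7 library (-0.35, adjusted p = 0.171). The 178 counts in BMP7 replicate 1 carry a counting error of 7.5%, which is larger than the spread between the libraries of a group.

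Its paralog *Cry2* (chr2:92233991-92264388, mm39, minus strand) had 10.1, 10.96 and 11 CPM in Ctrl and 9.55, 8.71 and 10.1 CPM with BMP7. The groups overlapped by a narrow margin at 10.1 CPM, and the log2 fold change of -0.18 (95% interval -0.43 to 0.07) did not pass (adjusted p = 0.368). That interval includes the *Cry1* value, so a fall of the same size in *Cry2* could not be told from none at this depth. *Cry2* shares 4.67% of its exon bases with *D930015M05Rik* on the opposite strand, which had at most 12 counts in a library.

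The period genes encode the partners that carry the cryptochromes into the nucleus, and none of the 3 passed the test. *Per1* (chr11:68986043-69000786, mm39, plus strand), the period gene most quickly induced by outside signals, had 59.8, 58.5 and 65.3 CPM in Ctrl and 69.3, 72.3 and 66.0 CPM with BMP7. The BMP7 libraries were all above the Ctrl libraries, by as little as 66.0 against 65.3 CPM, and the log2 fold change of 0.18 (SE 0.07) did not pass (adjusted p = 0.10). *Per2* (chr1:91343704-91387046, mm39, minus strand) had 25.7, 29.0 and 25.7 CPM in Ctrl and 24.0, 22.4 and 22.8 CPM with BMP7. Here the BMP7 libraries were all below, and the log2 fold change of -0.22 (SE 0.09) did not pass either (adjusted p = 0.108).

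*Per3* (chr4:151088109-151129122, mm39, minus strand), the period gene least needed for rhythm, was at 71.4, 61.7 and 63.7 CPM in Ctrl and at 55.3, 51.3 and 62.0 CPM with BMP7. BMP7 replicate 4 lay inside the Ctrl range and the other BMP7 libraries below it. The log2 fold change was -0.22 (SE 0.08, adjusted p = 0.0765), and without BMP7 replicate 4 it was -0.30 and was called (adjusted p = 0.0204). Whether *Per3* was called thus depended on 1 library.

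Of the REV-ERB genes of the second loop, 1 was called. *Nr1d1* (chr11:98658758-98666159, mm39, minus strand), which encodes REV-ERB alpha, a heme-binding repressor of *Arntl*, had 62.8, 62.5 and 71.4 CPM in Ctrl and 85.9, 83.6 and 73.7 CPM with BMP7. The groups did not overlap, but BMP7 replicate 4 was only a little above Ctrl replicate 3. The log2 fold change was 0.31 (SE 0.08, adjusted p = 0.0121), with the exact permutation p again at 0.1. The call was lost without Ctrl replicate 1 (adjusted p = 0.0621), without Ctrl replicate 2 (adjusted p = 0.0823) and without BMP7 replicate 3 (adjusted p = 0.0503), at log2 fold changes of 0.27 to 0.28. Without BMP7 replicate 1 the call was kept only just, at a log2 fold change of 0.2636 against a threshold of 0.2630 (edgeR adjusted p = 0.0445).

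The exons of *Nr1d1* overlap those of *Thra*, the thyroid hormone receptor gene on the opposite strand, over 263 of 3077 exon bases (8.55%), and the counting did not use strand. *Thra* itself had 71.5, 58.0 and 71.8 CPM in Ctrl and 69.8, 66.4 and 65.7 CPM with BMP7. Its log2 fold change of 0.0026 (SE 0.08, adjusted p = 0.989) did not pass. *Nr1d2* (chr14:4230569-4265642, mm39, plus strand), encoding REV-ERB beta, had 125, 117 and 118 CPM in Ctrl and 107, 113 and 122 CPM with BMP7. Those ranges overlapped (log2 fold change -0.07, 95% interval -0.21 to 0.07, adjusted p = 0.538), and a transcript named AC170187.1 in GENCODE vM21 matches *Nr1d2* over 1385 bases at 96.1% identity, so its level is uncertain where fragments with several hits were left out.

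*Clock* (chr5:76357715-76452639, mm39, minus strand), the DNA-binding activator of the loop, had 149, 152 and 146 CPM in Ctrl and 152, 182 and 184 CPM with BMP7. BMP7 replicates 3 and 4 were above every Ctrl library and BMP7 replicate 1 was inside the Ctrl range. In the macrophage sum, too, only BMP7 replicate 1 of the BMP7 libraries was inside the Ctrl range. In the adipocyte sum BMP7 replicate 1 (82.5 CPM) was above Ctrl (46.8 to 60.5 CPM), though below BMP7 replicates 3 and 4. The part of either sum in the *Clock* value was not tested. The log2 fold change was 0.21 (SE 0.07, adjusted p = 0.0571). Without BMP7 replicate 1 it was 0.29 and called (adjusted p = 0.00356), and with BMP7 replicate 1 as the only BMP7 library it was 0.03 (adjusted p = 0.849). A *Clock* level above the Ctrl range thus held for BMP7 replicates 3 and 4 only, although the sign was positive in all 12 other fits.

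The output genes *Dbp* and *Tef*, which activate D-box genes, showed no difference that passed. *Dbp* (chr7:45354512-45359627, mm39, plus strand), among the most strongly cycling clock targets in many tissues, had 20.4, 19.4 and 21.0 CPM in Ctrl and 18.4, 18.8 and 20.5 CPM with BMP7. The ranges overlapped, at a log2 fold change of -0.07 (95% interval -0.27 to 0.12, adjusted p = 0.663), and 18% of the *Dbp* exon bases are shared with *Sphk2* on the opposite strand (log2 fold change 0.12, adjusted p = 0.438). *Tef* (chr15:81686622-81711064, mm39, plus strand) had 153, 141 and 143 CPM in Ctrl and 141, 141 and 154 CPM with BMP7. Its log2 fold change was -0.0029 (95% interval -0.13 to 0.13, adjusted p = 0.987). The *Nr1d2* and *Tef* intervals were inside the 1.2-fold threshold (0.26 on the log2 scale) and the *Dbp* interval reached just past it. These intervals cover only the spread between these libraries, which may be technical. *Tef* shares 2.45% of its exon bases with *Gm17597* on the opposite strand, which had at most 3 counts in a library.

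**Figure D2:**
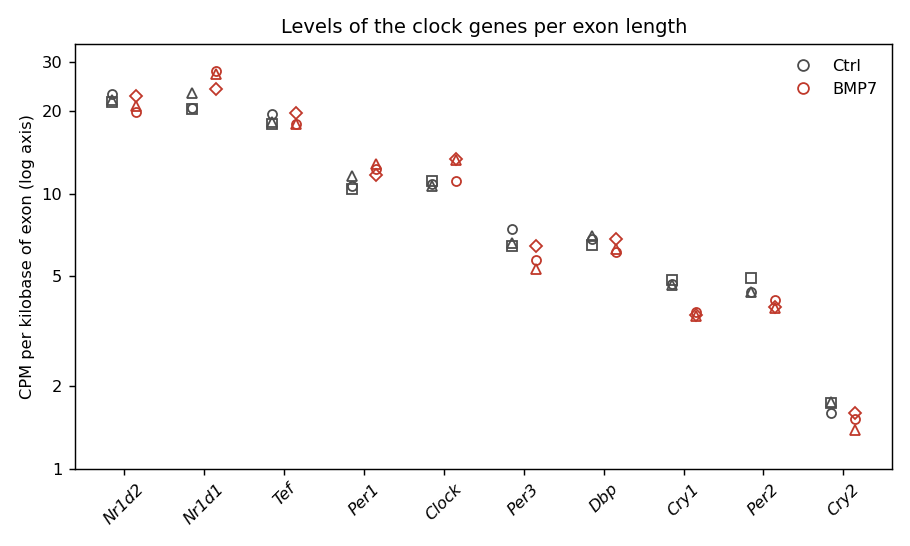
CPM per kilobase of exon (log axis) of the 10 clock genes in each Ctrl (grey) and BMP7 (red) library, ordered by the Ctrl mean, with circles, squares, triangles and diamonds for replicates 1, 2, 3 and 4. *Nr1d2*, *Nr1d1* and *Tef* were the most abundant per length and *Cry2* the least. *Nr1d1* was above *Nr1d2* in every BMP7 library and in Ctrl replicate 3.

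To compare genes with each other, CPM was divided by the deposited exon length. That length includes bases shared with a gene on the opposite strand (18% for *Dbp*, 8.55% for *Nr1d1*), where ambiguous fragments were left out. Values per kilobase of these genes may thus be too low, as may that of *Nr1d2* with its near copy. The order of genes with close values is therefore uncertain. In Ctrl the order per kilobase was *Nr1d2* (22.2 ± 0.755, SD, n = 3) and *Nr1d1* (21.3 ± 1.65), whose ranges overlapped, then *Tef* (18.5), *Per1* and *Clock* (both 10.9, overlapping), *Per3* (6.83) and *Dbp* (6.77), overlapping, *Cry1* (4.73) and *Per2* (4.57), overlapping, and *Cry2* (1.69). With BMP7 the order was *Nr1d1* (26.3 ± 2.10), above *Nr1d2* (21.1 ± 1.39) with no overlap, then *Tef* (18.5), *Clock* (12.6) and *Per1* (12.3), overlapping, *Dbp* (6.43) and *Per3* (5.85), overlapping, *Per2* (3.93), *Cry1* (3.65) and *Cry2* (1.49). *Nr1d1* was above *Nr1d2* in Ctrl replicate 3 too, by a ratio per kilobase of 1.06, the same as in BMP7 replicate 4 (1.06). The order thus differed between the groups for neighbours that overlapped in Ctrl, and *Cry1* went from beside *Per2* to below it in every BMP7 library.

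Ratios of counts within a library, which do not depend on scaling between libraries, were computed for 5 pairs picked after the values were seen and are given without a test. *Per1* counts were 2.33, 2.02 and 2.54 times those of *Per2* in Ctrl and 2.89, 3.23 and 2.90 times with BMP7. *Cry1* counts were 1.56, 1.48 and 1.42 times those of *Cry2* in Ctrl and 1.3, 1.38 and 1.2 times with BMP7. Both ratios had no overlap between groups, the first higher and the second lower with BMP7. The *Nr1d1* to *Nr1d2* ratio was 0.504, 0.534 and 0.603 in Ctrl and 0.799, 0.742 and 0.602 with BMP7. BMP7 replicate 4 and Ctrl replicate 3 were thus level in this ratio, although the groups of *Nr1d1* itself did not overlap. The *Tef* to *Dbp* ratio overlapped (6.82 to 7.5 in Ctrl, 7.48 to 7.69 with BMP7).

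**Figure D3:**
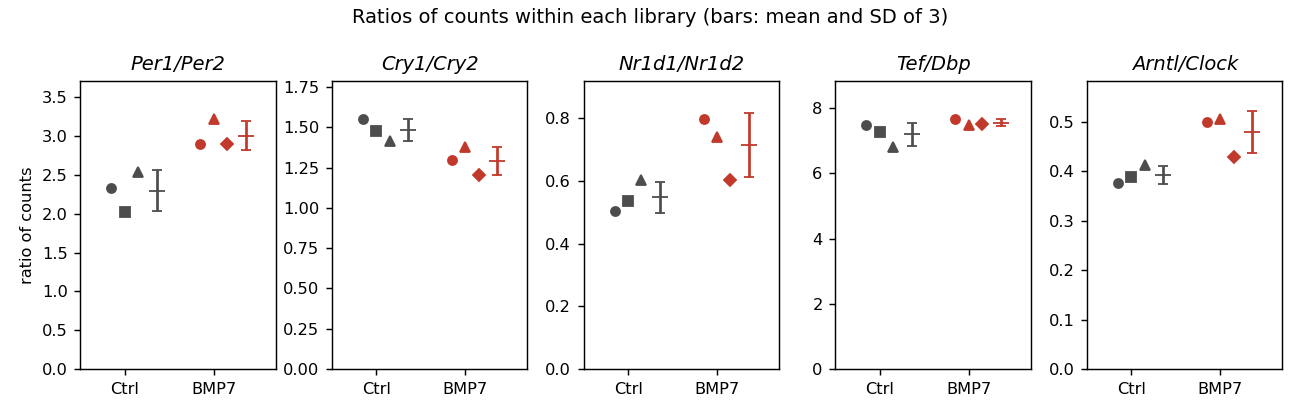
Ratio of the counts of 5 gene pairs within each library (vertical axes from 0), in Ctrl (grey) and BMP7 (red), with circles, squares, triangles and diamonds for replicates 1, 2, 3 and 4 and bars for the mean and SD of 3 libraries. The *Per1*/*Per2* and *Arntl*/*Clock* ratios were higher in every BMP7 library and the *Cry1*/*Cry2* ratio lower, while *Nr1d1*/*Nr1d2* and *Tef*/*Dbp* overlapped.

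The wider clock was read from a list of 21 further genes (partners of CLOCK, ROR and DEC proteins, HLF, NFIL3, and the kinases and ubiquitin ligases that act on PER and CRY), of which 19 were tested. Of the 19, 4 were higher, 2 lower and 13 not called, and the groups did not overlap for 5 above and 4 below. In all, 31.6% of the 19 were called against 11.4% of all genes tested (5.99% higher and 5.38% lower, with 14.8% above and 15.1% below), and nothing particular to the list is read from this. Their median log2 fold change was 0.14. Of the genes not tested, *Npas2*, a stand-in for *Clock*, had at most 1 count in a library, and *Fbxl21* was also under the filter.

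*Arntl* (BMAL1), the obligate partner of CLOCK, had 55.9, 59.2 and 60.3 CPM in Ctrl and 76.2, 92.4 and 78.9 CPM with BMP7. All 3 BMP7 libraries were well above Ctrl, with a log2 fold change of 0.50 (SE 0.08, adjusted p = 0.000225). *Arntl* counts relative to *Clock* were 0.376, 0.388 and 0.412 in Ctrl and 0.500, 0.507 and 0.430 with BMP7, higher in every BMP7 library. *Arntl2* (BMAL2), its paralog, was at 14.9, 16.6 and 16.4 CPM in Ctrl and 10.4, 11.1 and 14.5 CPM with BMP7, with BMP7 replicate 4 close to Ctrl (log2 fold change -0.41, SE 0.13, adjusted p = 0.0407). The *Arntl2* call was kept in only 1 of the 6 fits that left out a library. Transcripts of 10 other genes match *Arntl2* at 95% identity or more, each over at most 143 bases.

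*Rora* (log2 fold change 0.14, adjusted p = 0.532) and *Rorb* (0.17, adjusted p = 0.420), which encode activators acting through the element that REV-ERB represses, did not pass.

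The DEC repressors, which compete with CLOCK and BMAL1 for E-boxes, are encoded by a pair of genes, of which 1 was called. *Bhlhe41* (DEC2) fell from 29.9, 27.7 and 32.3 CPM in Ctrl to 19.0, 18.6 and 18.9 CPM with BMP7 (log2 fold change -0.67, SE 0.09, adjusted p = 4.41e-05), with 19% of its exon bases shared with *Gm43909* on the opposite strand. *Bhlhe40* (DEC1) had 149, 156 and 156 CPM in Ctrl and 172, 187 and 165 CPM with BMP7. The BMP7 libraries of *Bhlhe40* were all above Ctrl, but its log2 fold change of 0.18 (adjusted p = 0.0619) did not pass.

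At the D-box, the repressor gene *Nfil3* rose from 6.36, 5.01 and 5.92 CPM in Ctrl to 14.98, 12.04 and 11.2 CPM with BMP7. This was a log2 fold change of 1.14 (SE 0.14, adjusted p = 3.72e-05), the largest rise of the clock genes described here. The activator gene *Hlf* had 10.98, 8.06 and 7.73 CPM in Ctrl and 13.8, 11.8 and 11.5 CPM with BMP7. Its groups did not overlap, though only just (log2 fold change 0.46, SE 0.14, adjusted p = 0.0411), and 2 of the 6 fits that left out a library kept the call. Of the PAR bZIP activators, *Hlf* was thus called higher and *Dbp* and *Tef* were not called.

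*Nampt*, a clock output that makes NAD, rose from 115, 107 and 111 CPM in Ctrl to 188, 197 and 176 CPM with BMP7 (log2 fold change 0.76, SE 0.06, adjusted p = 3.2e-07). *Ciart*, a repressor with 3 E-boxes in its promoter window, did not pass (log2 fold change 0.18, adjusted p = 0.556). A transcript named *Gm9176* in GENCODE vM21 matches *Ciart* over 1126 bases at 96.7% identity. The *Ciart* level is thus uncertain where fragments with several hits were left out. The other genes of the list, which include the PER kinase genes *Csnk1d* (log2 fold change 0.02) and *Csnk1e* (-0.01), were not called.

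**Figure D4:**
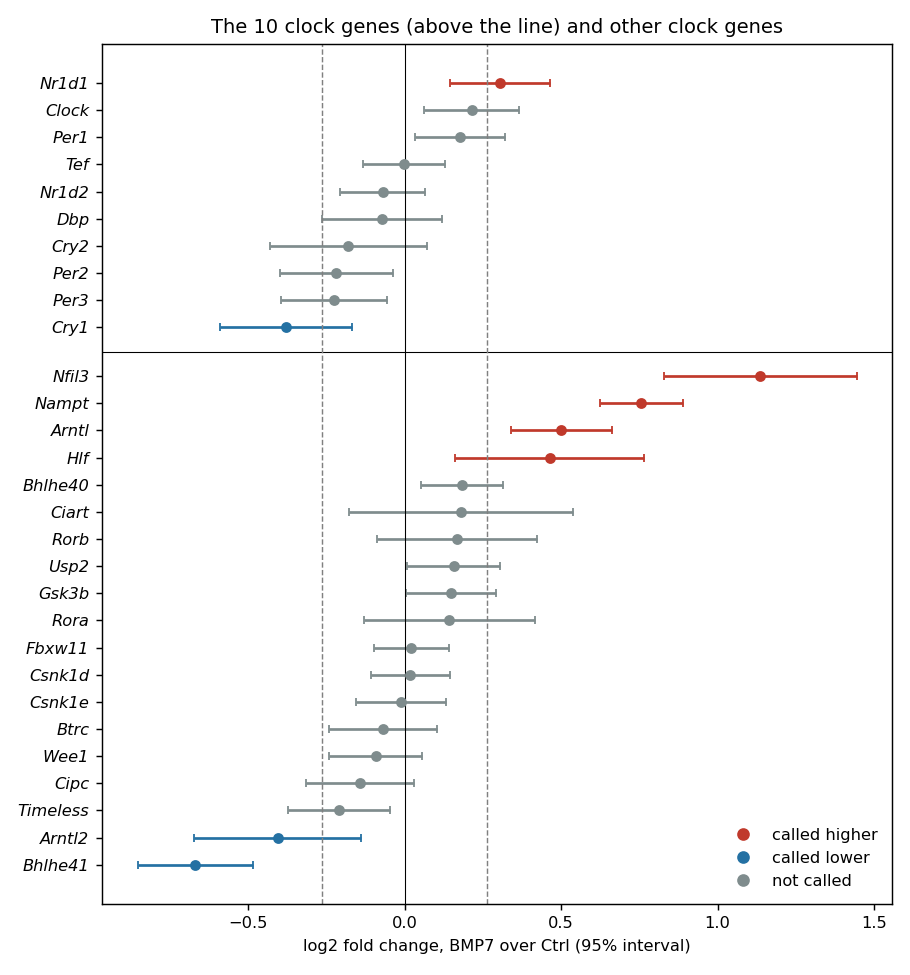
Log2 fold change of BMP7 over Ctrl with its 95% interval for the 10 clock genes (above the horizontal line) and 19 other clock genes (below it), red where called higher, blue where called lower and grey where not called, with dashed lines at a fold of 1.2. *Nr1d1* and *Cry1* were called among the 10, at 0.31 and -0.38, and *Nfil3* (1.14) had the largest rise and *Bhlhe41* (-0.67) the largest fall of the genes drawn.

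Grouped by the element they are known to respond to, the 12 genes listed as E-box or D-box targets (*Per1*, *Per2*, *Per3*, *Cry2*, *Nr1d1*, *Nr1d2*, *Dbp*, *Tef*, *Hlf*, *Ciart*, *Bhlhe41* and *Usp2*) held 2 called higher (*Nr1d1*, *Hlf*) and 1 called lower (*Bhlhe41*), with a median log2 fold change of -0.04. Of the 5 genes listed for the ROR/REV-ERB element, 4 were tested, and *Arntl* and *Nfil3* were called higher, *Cry1* lower, and *Clock* was not called. *Cry1*, whose window held an E-box and an E'-box, was counted in this list only. *Nampt* (called higher) and *Bhlhe40* and *Wee1* (not called) were in neither list, so the shares depend on how genes were placed. The share called was 25% and 75%, against 11.4% of all genes tested, in lists too short to read more from than that both directions occurred in each. In the promoter windows, *Bhlhe41* held an E-box 153 bases before its start and fell, while *Per1* and *Tef*, printed above with the same letters, were not called. The ROR/REV-ERB element was found in *Arntl*, 26 bases after one of its starts, and the GC-rich SMAD motif (11.9% of all promoters) in *Nfil3* and *Nampt*, which were called higher, and in *Csnk1e* and *Gsk3b*, which were not called.

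Signals that can act on clock genes from outside were described from a pair of further lists. Of 7 glucocorticoid response genes tested, 1 was called higher, the kinase gene *Sgk1* (log2 fold change 1.86, adjusted p = 1.39e-11), and *Tsc22d3*, *Fkbp5* and *Klf9*, well-known targets of the receptor, were at log2 fold changes of -0.09, -0.20 and 0.02 and were not called. Of 9 immediate early genes, *Junb* (1.39), *Jun* (1.32), *Fos* (0.54) and *Dusp1* (0.47) were higher and *Egr1* (-0.36, groups overlapping) and *Sik1* (-0.36) lower. Called genes were 14.3% of the first list and 66.7% of the second, against 11.4% of all genes tested. *Sik1*, a kinase known to limit light-driven induction of *Per1*, had 22.0, 20.2 and 21.4 CPM in Ctrl and 15.8, 16.5 and 17.2 CPM with BMP7.

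The genes whose log2 CPM followed *Nr1d1* most closely over the 6 libraries were *Ap5b1* (Pearson r = 0.998), *Hmgn3* (0.998), *Zfand3* (0.994), *Bcl3* (0.993) and *H2ax* (0.991). They share the libraries and the group difference with *Nr1d1*, and the coefficients are a description of these libraries only.

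**Figure D5:**
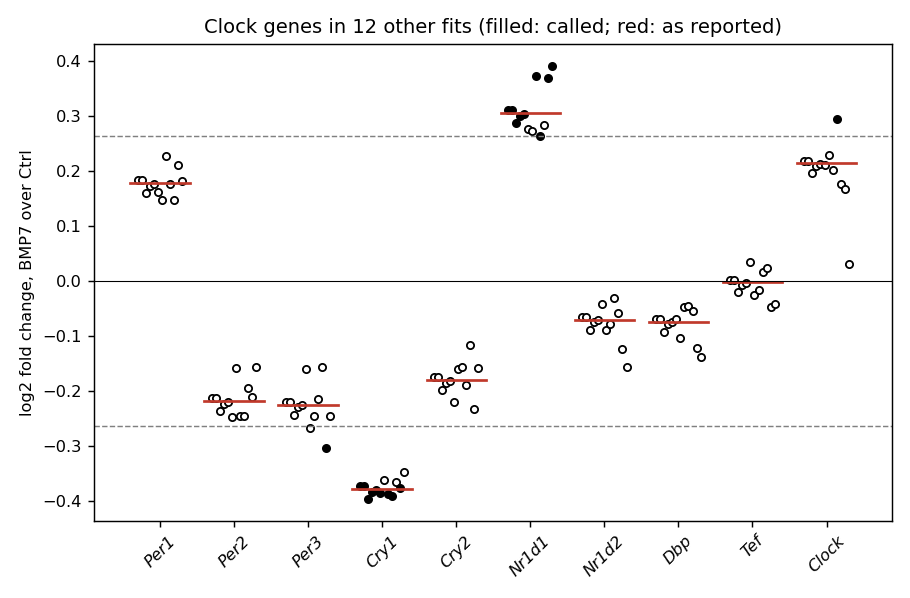
Log2 fold change of each of the 10 clock genes in 12 other fits (other tests, scalings, filters and sets of libraries), filled where the gene was called, with the reported value as a red line and dashed lines at a fold of 1.2. *Nr1d1* and *Cry1* were called in 9 of the 12 each, *Per3* and *Clock* in 1 each, and the other 6 genes in none.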

How the data were processed

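Of 6 HC11 libraries, 3 came from cells given BMP7 and 3 from cells in medium that lacked it (Ctrl). The authors aligned reads with Subread and deposited raw counts of fragments per gene name made by featureCounts. Per the file headers, exons of an annotation named mm39 were counted without strand, and fragments with several hits or genes were left out; the labels also name mm10. The deposited counts name BMP7 libraries 1, 3 and 4 and the labels 1 to 3, so these were matched by group only.

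Counts were tested in R 4.3.3 with edgeR 4.0.16 (filter by expression, TMM, quasi-likelihood test, Benjamini-Hochberg adjustment over 15733 genes). A call needs an adjusted p under 0.05 and a fold above 1.2. The SE is the log2 fold change over the square root of F. Exact permutation tests used log2 CPM with a prior count of 2. Alternatives were DESeq2 1.42.0, RLE and upper-quartile scaling, 2 other filters, other fold thresholds and leaving out libraries. Near copies were searched with BLAST 2.17.0 in GENCODE vM21 transcripts at 95% identity over at least 100 bases. The tests were tried on simulated data. Counting errors cover counting only.

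The text names the 10 genes, every called gene and the core partners of a 21-gene list, called genes of further lists, genes that overlap one of the 10, and the 5 genes most alike *Nr1d1*. Members and lists were chosen with earlier results of these data known, and 2 genes first listed are not reported here or counted in the list.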

Additional observations from a re-analysis of the deposited data

How the results depend on the processing

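In 12 other fits, no clock gene named as called changed direction. *Arntl*, *Bhlhe41*, *Nampt* and *Nfil3* were called in all 12, *Nr1d1* (log2 fold change 0.26 to 0.39) and *Cry1* (-0.40 to -0.35) in 9 each, and *Hlf* and *Arntl2* in 7 each. DESeq2, both other scalings and both other filters kept the calls of *Nr1d1* and *Cry1*. The calls were lost only in fits that left out libraries, which test fewer samples. When 1 library was left out, 0 to 2 of the 10 genes were called higher and 0 to 2 lower, against 723 to 1081 higher and 563 to 902 lower among all genes, the 563 being without Ctrl replicate 2, and 1 to 2 of the other clock genes were lower, *Arntl2* being the one lost. With BMP7 replicate 1 as the only BMP7 library, assumed to vary like the Ctrl libraries, 0 of the 10 were called lower. At a fold threshold of 1.5, 0 of the 10 were called higher and 0 lower, 2 other clock genes were higher and 1 lower, and 476 genes in all were higher and 304 lower. Upper-quartile scaling gave 870 higher and 983 lower genes. No paired analysis was possible because the BMP7 libraries carry other numbers in the deposited counts than in the labels, so the planned replicate block was not run. Depth limits the low genes most, *Cry2* having a counting error of up to 8.54% in a library.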
